A study of Gallus gallus with 5 samples.

Results

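The genes of chromosomal DNA replication and DNA repair were followed in DT40, a lymphoma line of chicken B cells, with and without doxycycline. The labels pair the drug with the off state of CAP-H, a subunit of the chromosome-compacting complex condensin I. Members were the rows whose RefSeq accession maps to a chicken gene symbol of the FANC, RAD, XRCC, ERCC, MSH, MLH, MCM, RFC, ORC, RPA, GINS, PRIM or nuclear DNA polymerase families, together with GMNN, TK1, PCNA and PRKDC. The rule found 61 genes among 16143 measured features, and all 61 passed the filter on low counts. The gene reference holds 100 symbols that match the rule, so the families are incomplete here. Counts of a family or pathway below are of its measured members. The rule used gene names alone and no measured value, but the gene set was proposed with earlier results of these data known.

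RNA-seq libraries were made from total RNA of DT40 cells that the labels call CAP-H knockout cells in both groups. In the group labelled CAP-H on, 3 libraries (replicates 1, 2 and 3) had no doxycycline. The 2 libraries labelled CAP-H off (replicates 1 and 3) had 100 ng/ml doxycycline, and the treatment time was 36 h. The sources used here give neither the promoter that doxycycline acts on, nor the number of clones, nor whether replicates were separate cultures. The p-values therefore measure the spread between libraries, and that spread may be technical. The comparison asks how RNA levels differ between cells with CAP-H on and off. Every CAP-H off library had doxycycline and no CAP-H on library did. Effects of the drug itself and of the off state therefore cannot be told apart in any difference below.

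DNA replication starts when the origin recognition complex (ORC) loads the ring-shaped MCM helicase onto DNA. GINS proteins then help to activate the helicase, and primase, the replicative polymerases, the sliding clamp PCNA, its loader RFC and the single-strand binding protein RPA build the moving fork. Repair pathways use many of the same parts: Fanconi anaemia proteins handle crosslinked DNA, homologous recombination copies missing sequence from an intact DNA molecule, the Ku and DNA-PKcs proteins join broken ends, and ERCC proteins act in nucleotide excision repair. DT40 cells are widely used to study these pathways because they integrate transfected DNA at matching genomic sites very efficiently.

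Levels are CPM, counts scaled to a common library total with TMM factors, which sets libraries against their typical feature, and are given as mean ± SD (n = 3 for CAP-H on and n = 2 for CAP-H off). Log2 fold changes are CAP-H off minus CAP-H on, with their standard error (SE), and "rose" and "fell" mean an adjusted p under 0.05 in edgeR's quasi-likelihood test over 10079 features. CPM values are not divided by transcript length, so levels are compared between libraries and not between genes. Total counts per library ranged from 12199522 to 22533003 over all deposited rows, some of which repeat the same measurement. After such rows were merged they ranged from 11564042 to 21228020. The smallest count of any member in any library was 62. The labels could not be checked by the targeted gene, since 0 rows matched NCAPH. Of 13 listed B-cell markers 11 were measured, and their summed level was 1401 to 1456 CPM (by library size, as for the markers below) in CAP-H on and 985 to 1032 in CAP-H off, with 1 marker higher and 5 lower. Transcripts of PAX5, EBF1 and CD79B, which mark B cells, were detected in every library. PAX5 fell (-0.37, adjusted p = 0.0036), while EBF1 and CD79B did not pass. The other falls were IKZF1 (-1.43, adjusted p = 7.8e-11), CD72 (-0.53, adjusted p = 7.2e-06), BTK (-0.46, adjusted p = 3.0e-05) and POU2AF1 (-0.44, adjusted p = 9.2e-05). SYK rose (0.25, adjusted p = 0.0014). Of 7 T-cell markers 5 were measured, at a summed 94.1 to 103 CPM in CAP-H on and 96.1 to 96.8 in CAP-H off, nearly all from CD3D, while CD3E held at most 6 counts. Of 6 macrophage and granulocyte markers 4 were measured, at 146 to 156 in CAP-H on and 105 to 106 in CAP-H off. MPEG1 (-1.51, adjusted p = 9.8e-07) and CYBB (-0.52, adjusted p = 0.0053) fell. SPI1, which held most counts of this list, did not pass (-0.13, adjusted p = 0.060), and MARCO was at the smallest value of the files in every library. The haemoglobin genes HBBA and HBA1, the measured markers of 6 for red cells and thrombocytes, held at most 8 counts. The part of the marker shifts in the results below was not tested. In bulk RNA, fewer cells of a cycle stage or type and less RNA per cell cannot be told apart.

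Of the 61 members 18 rose, 16 fell and 27 did not pass. The rise of POLE2 rests on CAP-H off replicate 1 alone. Without POLE2, 17 of 60 members rose, 55.0% were called and 11.7% moved by at least 0.5 on the log2 scale. Across all tested features 46.3% changed, 22.6% rising and 23.7% falling, against 55.7%, 29.5% and 26.2% of the members; that difference in shares was not tested. By pathway, 64.3% of licensing, 53.8% of fork, 42.9% of Fanconi, 28.6% of recombination and 83.3% of end joining genes were called. In excision and mismatch repair it was 42.9%, and in damage tolerance 75.0%. These groups hold 4 to 14 genes each and were not tested as sets. The median log2 fold change of the members was -0.013, against 0.00068 over all features. Changes were small: 26 of the 34 called members moved by less than 0.5 on the log2 scale, and 13.1% of members moved by at least 0.5 against 24.7% of features. Groups did not overlap in 39 members, 63.9% of them, against 64.9% of features. In 22 of these CAP-H off was higher and in 17 lower, while 32.1% and 32.9% of features lay that way. Of the 34 called members 33 had groups without overlap, so a lack of overlap adds little to a call below. Leaving out POLE2, the largest spread of any member between libraries of 1 group was 0.42 on the log2 scale, and the median spread was 0.10 within CAP-H on and 0.088 within CAP-H off. Scaling by library size alone shifted the median of all features by -0.18 and turned the members' split to 8 higher and 33 lower, where 12.6% of features rose and 40.9% fell. Under it all 16 falls were kept, which its downward shift favours, so that is no further check of them. The rises kept were those of GMNN, GINS2, MCM5, PCNA, TK1, POLE2, FANCG and RAD51D. All directions below are therefore relative to the typical feature.

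**Figure D1:**
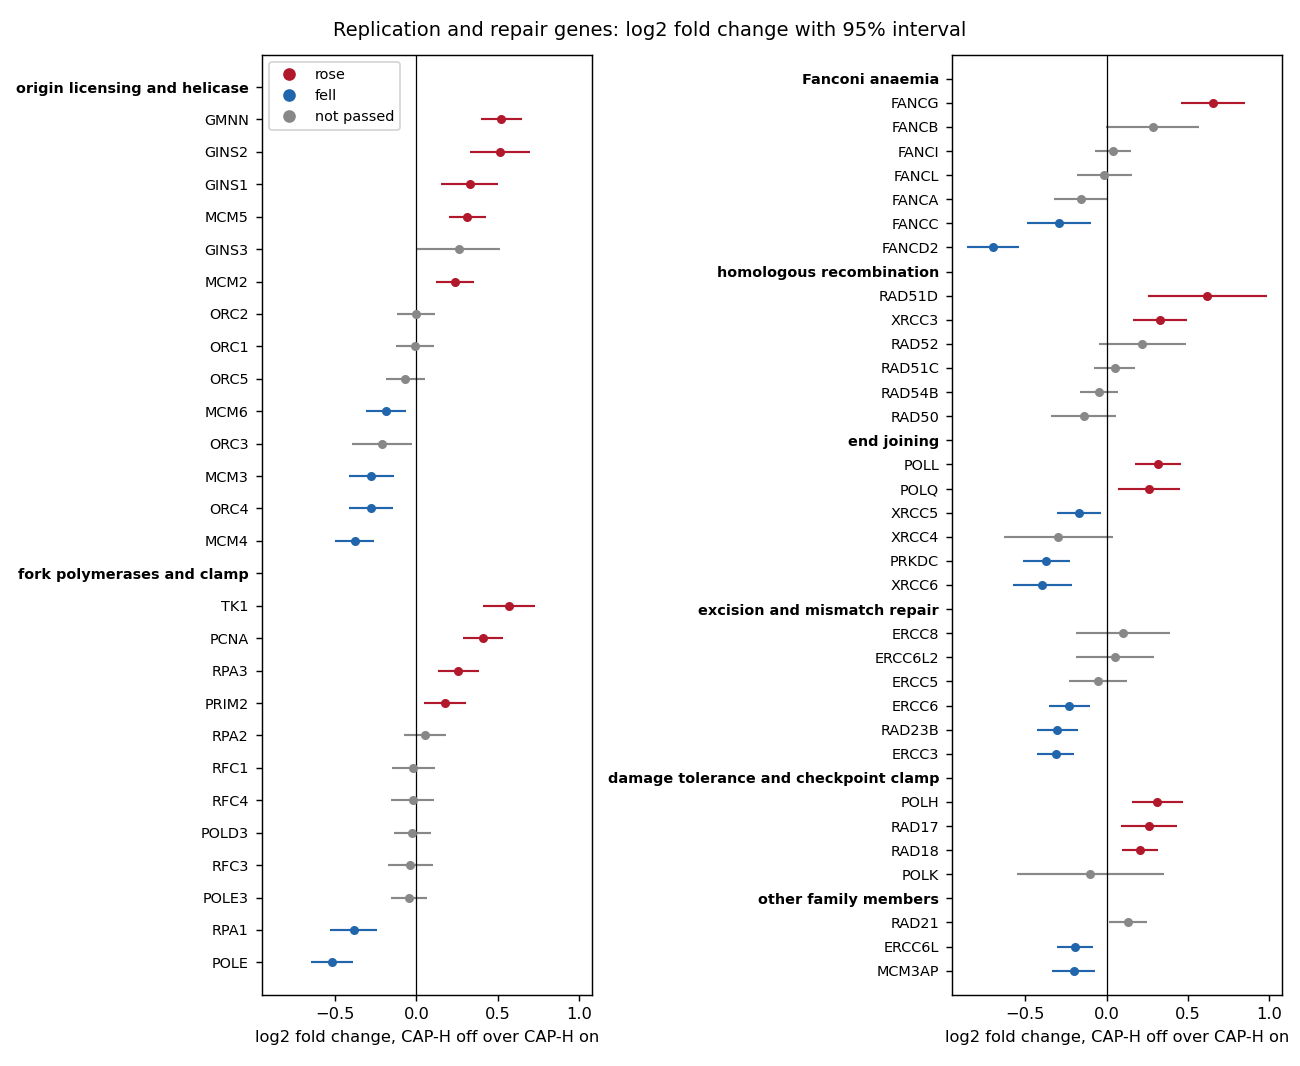
Log2 fold change (CAP-H off over CAP-H on, horizontal axis) with its 95% interval for 58 members, sorted within pathway and without POLE2; red points rose, blue points fell and grey points did not pass. Most points lie within 0.5 of 0, and the licensing, fork, Fanconi and end joining genes hold both red and blue points.

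Among the 14 genes of origin licensing and the replicative helicase, 5 rose, 4 fell and 5 did not pass, with a median log2 fold change of -0.0053. The MCM helicase, a ring of 6 related subunits of which MCM2, MCM3, MCM4, MCM5 and MCM6 were measured here, split in direction. MCM5 stood at 559, 597 and 592 CPM in CAP-H on and 697 and 749.8 CPM in CAP-H off. MCM4 stood at 474, 489.6 and 488 CPM in CAP-H on and 362 and 382 CPM in CAP-H off. Both CAP-H off libraries were thus above all CAP-H on libraries for MCM5 and below all of them for MCM4. MCM5 (galGal4 chromosome 1, 51939572 to 51947829) rose by 0.31 (SE 0.05, adjusted p = 0.00020), and MCM4 (chromosome 2, 107695681 to 107707787) fell by 0.38 in log2 units (SE 0.06, adjusted p = 5.4e-05).

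The remaining MCM subunits divided in the same manner; their single values were added after they had been seen. MCM2 was at 584, 649 and 598 CPM in CAP-H on and at 709 and 731 CPM in CAP-H off, a rise of 0.24 (SE 0.06, adjusted p = 0.0022). MCM3 was at 317, 334 and 339.8 CPM in CAP-H on and at 261 and 284 CPM in CAP-H off, a change of -0.28 (SE 0.07, adjusted p = 0.0025). MCM6 was at 398, 404 and 412 CPM in CAP-H on and at 363 and 347 CPM in CAP-H off (-0.19, SE 0.06, adjusted p = 0.015). In none of these 3 genes did the groups overlap. With library size alone MCM2 came to 0.06 (adjusted p = 0.35), and MCM5 kept its rise at 0.13 (adjusted p = 0.030). MCM6 did not pass in edgeR's exact test (adjusted p = 0.10) or with the replicate number as a block (adjusted p = 0.074). Replicate 2 exists only in CAP-H on. For every gene the block fit therefore nearly repeats the fit without CAP-H on replicate 2, and the 2 are not separate checks. MCM6 is the least firm of the 5: it no longer passed when CAP-H on replicate 2 (-0.19, adjusted p = 0.055), CAP-H on replicate 3 (-0.18, adjusted p = 0.066) or CAP-H off replicate 3 (-0.15, adjusted p = 0.072) was left out.

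The count of one subunit over that of another within a library does not depend on how libraries are scaled. MCM5 over MCM4 was 1.18, 1.22 and 1.21 in CAP-H on and 1.93 and 1.96 in CAP-H off, a 1.62-fold higher ratio. MCM2 over MCM3 was 1.84, 1.94 and 1.76 in CAP-H on and 2.72 and 2.57 in CAP-H off, 1.43-fold higher. For both ratios the groups were far apart compared with their own spread. The pairs were chosen after the fold changes had been seen, so the ratios are a description.

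**Figure D2:**
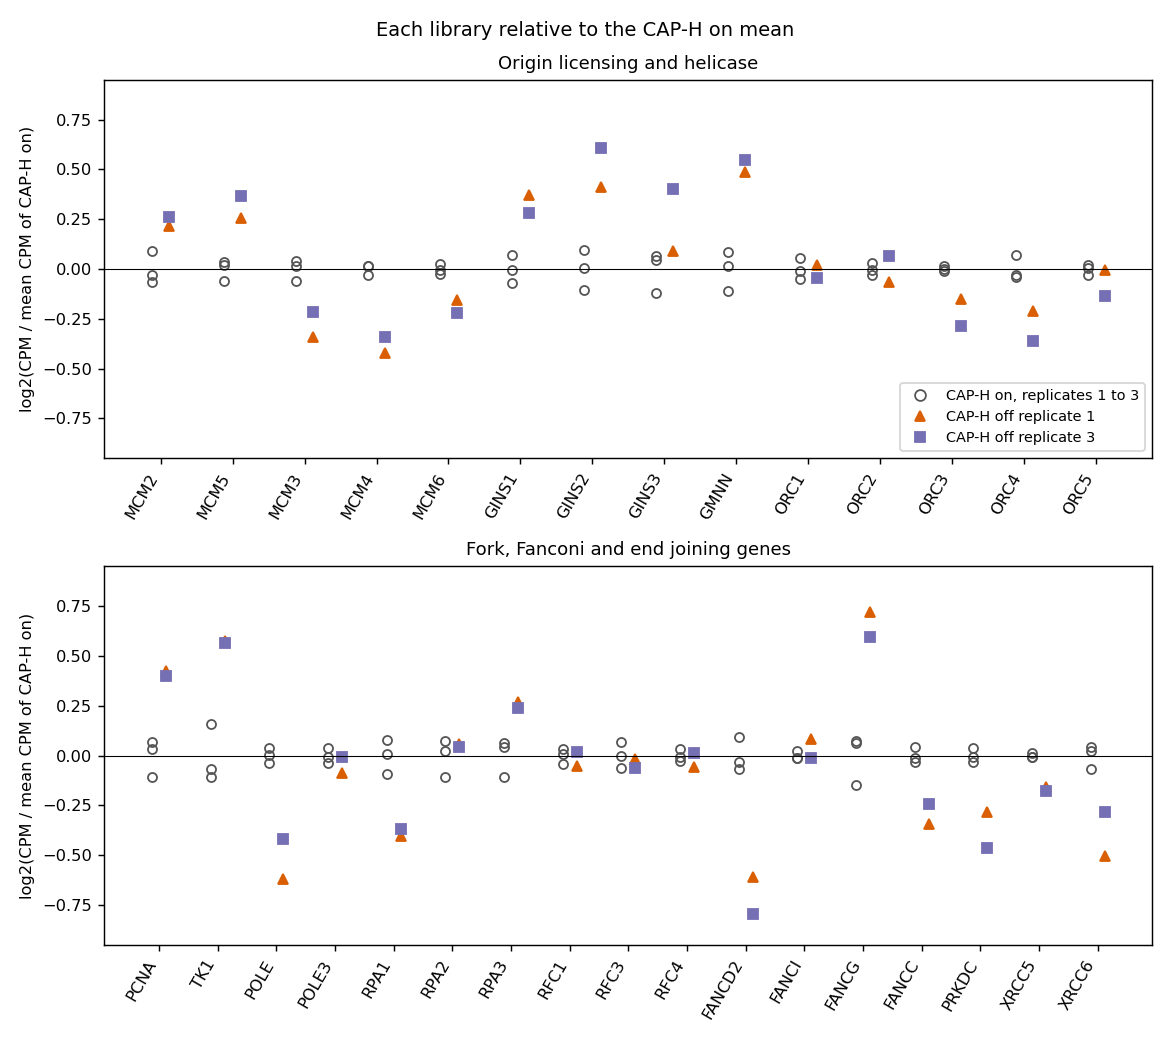
Level of each library relative to the mean of CAP-H on (log2 of the CPM ratio, vertical axis) for licensing, fork, Fanconi and end joining genes; circles are the 3 CAP-H on libraries, the triangle is CAP-H off replicate 1 and the square CAP-H off replicate 3. MCM2 and MCM5 sit above 0 and MCM3, MCM4 and MCM6 below it in both CAP-H off libraries, while the RFC genes stay near 0.

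GMNN encodes geminin, which blocks a second round of licensing by binding CDT1. Its level was 82.0, 89.3 and 93.8 CPM in CAP-H on and 124 and 129 CPM in CAP-H off. The CAP-H off libraries lay well above the others, a rise of 0.52 (SE 0.06, adjusted p = 3.3e-06; chromosome 2, 90217682 to 90222892). GINS2 was at 36.0, 33.3 and 38.2 CPM in CAP-H on and 47.7 and 54.7 CPM in CAP-H off, and rose by 0.51 (SE 0.09, adjusted p = 0.00017; chromosome 11, 17098226 to 17103111). Both genes kept their rise with library size alone (0.34 and 0.33). GINS1 overlaps in part an unnamed feature that rose by 0.42 (adjusted p = 0.00011), so some of its reads may belong to that feature. The feature was at a mean of 54.4 CPM in CAP-H on and 72.8 CPM in CAP-H off. GINS1 rose by 0.33 (SE 0.08, adjusted p = 0.0045), from 34.2 ± 1.69 to 42.9 ± 1.97 CPM, but it overlaps an unnamed feature, came to 0.14 with library size alone (adjusted p = 0.17) and to 0.28 with CAP-H off replicate 1 left out (adjusted p = 0.055). GINS3 had 0.26 (SE 0.12, adjusted p = 0.087), which came to 0.41 with CAP-H off replicate 1 left out (adjusted p = 0.017).

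Of the 5 origin recognition genes 1 fell and 4 did not pass. ORC1, the subunit whose level follows the cell cycle in mammals, stood at 103 ± 3.91 and 102 ± 3.14 CPM, with a 95% interval of its log2 fold change from -0.12 to 0.11. ORC2 had an interval from -0.12 to 0.11 and ORC5 from -0.19 to 0.05. ORC4, which overlaps ACVR2A, fell by 0.28 in log2 units (SE 0.06, adjusted p = 0.0017), with 90.2, 90.7 and 97.1 CPM in CAP-H on and 80.1 and 72.1 CPM in CAP-H off. With CAP-H off replicate 3 left out it had -0.20 and did not pass (adjusted p = 0.061). ORC3 had -0.21 (SE 0.09, adjusted p = 0.054) with groups that did not overlap. With library size alone all 5 ORC genes were lower and passed, ORC1 at -0.19.

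In the fork group, which here also holds the salvage enzyme gene TK1, 13 genes were measured. Of these 5 rose, 2 fell and 6 did not pass. The rises include that of POLE2, which rests on CAP-H off replicate 1 alone. PCNA, the sliding clamp that holds polymerases on DNA, was at 479.8, 529 and 542 CPM in CAP-H on and at 693 and 681 CPM in CAP-H off. TK1, the thymidine kinase that salvages thymidine for DNA synthesis, was at 54.3, 65.3 and 55.7 CPM in CAP-H on and 87.0 and 86.3 CPM in CAP-H off. In both genes the CAP-H off libraries were close together and above every CAP-H on library. PCNA (chromosome 22, 334051 to 336641) rose by 0.41 (SE 0.06, adjusted p = 3.1e-05) and TK1 (chromosome 18, 10142952 to 10144361) by 0.57 (SE 0.08, adjusted p = 1.4e-05). The rises remained with library size alone, at 0.23 and 0.39.

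POLE, the catalytic subunit of the leading-strand polymerase epsilon, went the other way. It stood at 149.6, 142 and 146 CPM in CAP-H on and at 95 and 109 CPM in CAP-H off. The groups did not overlap, and POLE (chromosome 15, 10007212 to 10026946) fell by 0.52 in log2 units (SE 0.06, adjusted p = 4.3e-06). POLE3, the histone-fold subunit of the same enzyme, had a log2 fold change of -0.05 with a 95% interval from -0.16 to 0.06.

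RPA, the single-strand binding protein of 3 subunits, was also uneven. The large subunit gene RPA1 was at 212, 222 and 197 CPM in CAP-H on and at 159 and 163 CPM in CAP-H off, a change of -0.39 (SE 0.07, adjusted p = 0.00027). RPA3, the smallest subunit, went from 92.9 ± 5.92 to 111 ± 1.65 CPM (0.26, SE 0.06, adjusted p = 0.0022; 0.08, adjusted p = 0.28, with library size alone), and RPA2 had 0.05 (adjusted p = 0.51). Within libraries, RPA3 over RPA1 was 0.41, 0.44 and 0.49 in CAP-H on and 0.70 and 0.67 in CAP-H off. That ratio was 1.56-fold higher in CAP-H off, which follows from pairing a subunit that rose with one that fell, a choice made after the fold changes had been seen.

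The clamp loader genes RFC1, RFC3 and RFC4 did not pass and had narrow intervals. Their log2 fold changes lay between -0.039 and -0.019, and the widest of the 3 intervals reached from -0.18 to 0.10. RFC4, for example, was at 175, 182 and 177 CPM in CAP-H on and 171 and 179 CPM in CAP-H off. POLD3, an accessory subunit of the lagging-strand polymerase delta, had an interval from -0.14 to 0.09. PRIM2, the large primase subunit, passed at 0.18 (SE 0.06, adjusted p = 0.029), but its sign turned with library size alone (-0.0064, adjusted p = 0.94). It did not pass when CAP-H off replicate 1 (0.07, adjusted p = 0.55), CAP-H on replicate 1 (0.16, adjusted p = 0.061) or CAP-H on replicate 3 (0.17, adjusted p = 0.059) was left out. PRIM2 did not pass in the DESeq2 Wald test (adjusted p = 0.068) or without the filter on low counts (adjusted p = 0.13) either. With library size alone RFC1, RFC3, RFC4, POLD3 and POLE3 passed as lower, at -0.20 to -0.23. RFC1 overlaps another feature.

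**Figure D3:**
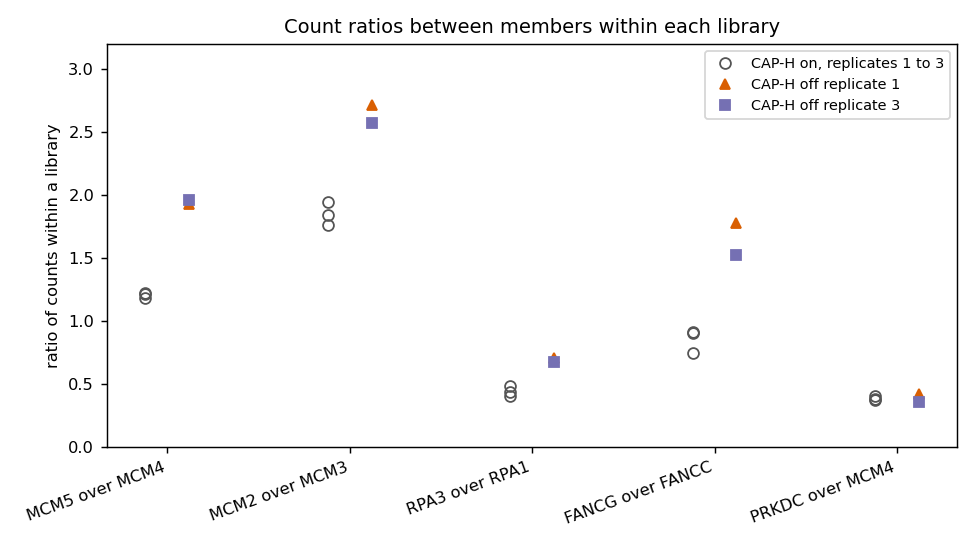
Ratio of the counts of paired members within each library (vertical axis, starting at 0) for CAP-H on (circles, 3 libraries), CAP-H off replicate 1 (triangle) and CAP-H off replicate 3 (square). MCM5 over MCM4, MCM2 over MCM3, RPA3 over RPA1 and FANCG over FANCC are higher in both CAP-H off libraries, and PRKDC over MCM4 overlaps between the groups.

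POLE2, the second subunit of polymerase epsilon, is a case of its own, since 1 library sets its value. It stood at 129.99, 144 and 138 CPM in CAP-H on, at 139.9 CPM in CAP-H off replicate 3 and at 1214 CPM in CAP-H off replicate 1. Only the last of these stands apart. The fit called a rise of 2.30 (SE 0.48, adjusted p = 0.00096), which became 0.025 with CAP-H off replicate 1 left out (adjusted p = 0.83) and 3.15 with CAP-H off replicate 3 left out; the DESeq2 Wald test did not pass it (adjusted p = 0.051).

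POLE2 (chromosome 5, 57502653 to 57521827) lies within a run of 7 adjacent features that are all high in CAP-H off replicate 1. CAP-H off replicate 1 exceeded CAP-H off replicate 3 by 1074 CPM in POLE2, by 1088 CPM in LRR1, by 1085 CPM in both DNAAF2 and KLHDC1 and by 1077 CPM in NEMF. Over the 7 features the excess ranged only from 1072 to 1088 CPM, although their levels in CAP-H off replicate 3 ranged from 16.4 to 139.9 CPM. The added amount was thus nearly equal for every feature of the run, whatever its own level. Just outside the run, XM_001235086.2 had 282, 275 and 307 CPM in CAP-H on and 489 and 517 CPM in CAP-H off. It rose by 0.81 (adjusted p = 5.5e-08). ARF5, on the other side, had 48.6, 50.8 and 39.2 CPM in CAP-H on, 35.1 and 45.2 CPM in CAP-H off, and did not pass. Within the run KLHDC2 was also higher in CAP-H off replicate 3, at 135 CPM against 90.5 to 99.0 CPM in CAP-H on. How the equal excess of the run in CAP-H off replicate 1 arose was not tested.

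**Figure D4:**
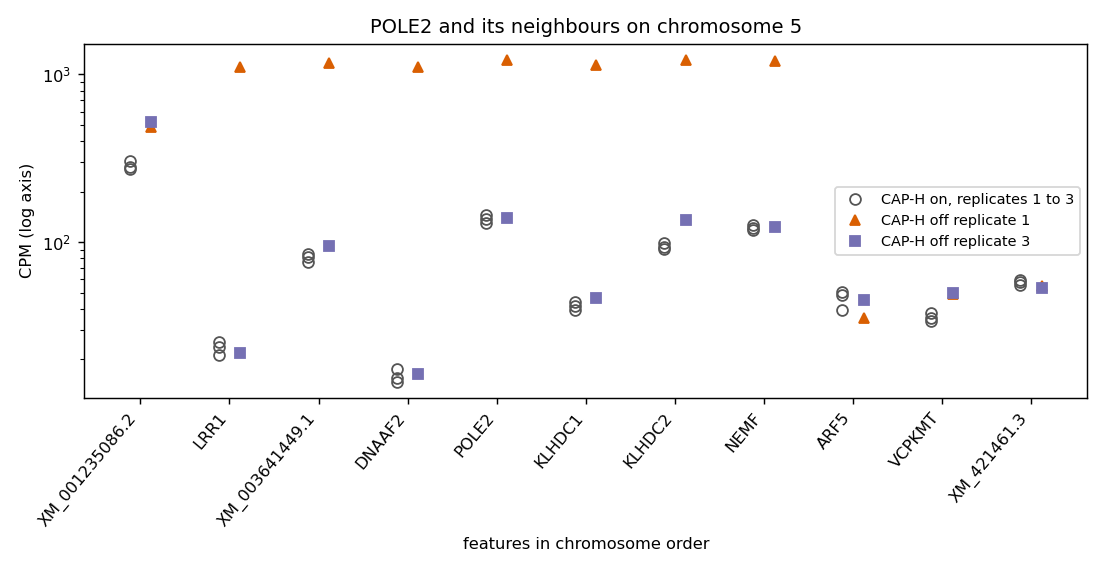
CPM on a log axis for POLE2 and the features around it, in chromosome order; circles are the 3 CAP-H on libraries, triangles CAP-H off replicate 1 and squares CAP-H off replicate 3. From LRR1 to NEMF the triangles form a nearly level line between 1101 and 1218 CPM, while the squares stay among the circles or close to them.

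Of the 7 Fanconi anaemia genes 1 rose, 2 fell and 4 did not pass. FANCD2, which is ubiquitinated together with FANCI at stalled forks, had the deepest fall of all members. It stood at 71.6, 77.9 and 69.8 CPM in CAP-H on and at 47.8 and 42.1 CPM in CAP-H off, well separated. FANCD2 (chromosome 12, 2749643 to 2795257) fell by 0.70 in log2 units (SE 0.08, adjusted p = 2.0e-06). Its partner FANCI, which overlaps an unnamed feature, was at 102 ± 1.49 and 105 ± 4.95 CPM (0.04, interval from -0.07 to 0.15); with library size alone its sign turned and it passed as lower (-0.14, adjusted p = 0.034).

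The Fanconi core complex, which ubiquitinates that pair through the ligase subunit FANCL, held a rise and a fall. FANCG was at 30.2, 30.0 and 25.9 CPM in CAP-H on and at 47.4 and 43.3 CPM in CAP-H off, a rise of 0.65 (SE 0.09, adjusted p = 3.0e-05; chromosome Z, 8422478 to 8433633). FANCC was at 33.5, 33.0 and 34.9 CPM in CAP-H on and at 26.6 and 28.5 CPM in CAP-H off (-0.29, SE 0.09, adjusted p = 0.016; -0.25, adjusted p = 0.11, without CAP-H off replicate 1). Both genes are on chromosome Z, and FANCG over FANCC within a library was 0.90, 0.91 and 0.74 in CAP-H on against 1.78 and 1.52 in CAP-H off, a pair likewise chosen because the genes moved apart. FANCA had -0.16 (SE 0.08, adjusted p = 0.11; -0.21, adjusted p = 0.041, without CAP-H on replicate 3), and FANCL had -0.013 (SE 0.08, adjusted p = 0.90). FANCB, another core subunit, was at 14.01, 12.6 and 14.2 CPM in CAP-H on and 15.9 and 17.3 CPM in CAP-H off (0.28, SE 0.13, adjusted p = 0.095). FANCL overlaps VRK2.

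In homologous recombination 2 of 7 genes rose and 5 did not pass. XRCC3, a recombination protein that forms a complex with RAD51C, was at 36.9, 37.3 and 35.0 CPM in CAP-H on and at 45.7 and 45.8 CPM in CAP-H off (0.33, SE 0.08, adjusted p = 0.0027; 0.15, adjusted p = 0.15, with library size alone). RAD51C had 0.05 with an interval from -0.08 to 0.18. RAD51D, a recombination protein of another such complex, was low, at 8.39, 8.33 and 6.28 CPM in CAP-H on and 11.6 and 12.3 CPM in CAP-H off, and rose by 0.62 (SE 0.17, adjusted p = 0.0076). RAD51D overlaps in part an unnamed feature that rose by 0.59, so some of its reads may belong to that feature. RAD50, of the MRN end-processing complex, had -0.14 (adjusted p = 0.23; -0.29, adjusted p = 0.039, without CAP-H off replicate 3). RAD52, a mediator of single-strand annealing in yeast, was at 21.6, 28.0 and 21.3 CPM in CAP-H on and 26.8 and 28.1 CPM in CAP-H off (0.22, adjusted p = 0.17; 0.35, adjusted p = 0.031, without CAP-H on replicate 2). RAD54B, a DNA translocase that overlaps FSBP, had -0.05 (adjusted p = 0.52).

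Of 6 end joining genes 3 fell, 2 rose and 1 did not pass. PRKDC encodes DNA-PKcs, the kinase that Ku recruits to DNA ends. It was at 190.2, 181 and 185 CPM in CAP-H on and at 152 and 134 CPM in CAP-H off, and fell by 0.37 in log2 units (SE 0.07, adjusted p = 0.00033). XRCC6, the Ku70 gene, was at 48.3, 49.0 and 45.3 CPM in CAP-H on and at 33.5 and 39.1 CPM in CAP-H off (-0.40, SE 0.09, adjusted p = 0.0013). The CAP-H off libraries were below all CAP-H on libraries in both genes. XRCC5, the Ku80 gene, had groups that did not overlap at 63.3 ± 0.51 and 56.3 ± 0.50 CPM (-0.17, SE 0.06, adjusted p = 0.039), but it lost its call when any 1 of the 5 libraries was left out, at -0.16 to -0.18 and adjusted p of at most 0.20. XRCC5 did not pass in the DESeq2 Wald test (adjusted p = 0.13) or with the replicate block (adjusted p = 0.13) either. With library size alone PRKDC, XRCC6 and XRCC5 had -0.55, -0.58 and -0.35. That scaling shifts the median of all features by -0.18, so a fall kept under it is no further check.

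The polymerases of end joining were higher. POLL, the gap-filling polymerase lambda, was at 56.5, 53.5 and 54.6 CPM in CAP-H on and at 65.5 and 71.5 CPM in CAP-H off (0.32, SE 0.07, adjusted p = 0.0011). POLQ, the polymerase theta of microhomology-mediated joining, was at 38.0, 33.5 and 39.5 CPM in CAP-H on and at 46.6 and 41.9 CPM in CAP-H off (0.26, SE 0.09, adjusted p = 0.026). Both rose, but POLQ did not pass when CAP-H on replicate 2 (0.20, adjusted p = 0.11) or CAP-H off replicate 1 (0.18, adjusted p = 0.23) was left out. With library size alone neither passed, at 0.14 (adjusted p = 0.11) and 0.08 (adjusted p = 0.50). POLQ did not pass with the replicate block (0.20, adjusted p = 0.15) or without the filter on low counts (0.23, adjusted p = 0.077) either. XRCC4, the ligase IV partner, had -0.30 (SE 0.16, adjusted p = 0.14); with CAP-H off replicate 1 left out it had -0.51 (adjusted p = 0.031).

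PRKDC and MCM4 are neighbours on chromosome 2, with 581 bases between PRKDC (107610797 to 107695099) and MCM4; the human genes are likewise adjacent and are transcribed away from each other. Their log2 fold changes were -0.37 and -0.38. PRKDC over MCM4 within a library was 0.40, 0.37 and 0.38 in CAP-H on and 0.42 and 0.35 in CAP-H off, so the ratio overlapped between the groups while each gene alone did not. In all, 25 pairs of a member and an adjacent feature lay within 1000 bases of each other without overlapping and were tested in both. In 9 pairs both were called, 6 in the same direction and 3 in opposite directions. Among the 6 is POLE2 with DNAAF2, which both lie in the run that is high in CAP-H off replicate 1 alone. Over all adjacent pairs of features within that distance, both called, 298 of 439 (67.9%) moved in the same direction. PCNA (0.41) stood beside CDS2 (0.28, adjusted p = 0.0051), and FANCD2 (-0.70) beside EMC3, which rose by 0.37 (adjusted p = 0.0016). RAD51C (0.05) lay 561 bases from XM_415869.3, which went from a mean of 7481 to 30668 CPM and rose by 2.04 (adjusted p = 5.9e-11). These neighbours were named after their values were seen.

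Of 7 genes of excision and mismatch repair 3 fell and 4 did not pass, with a median of -0.23. That is 42.9% called, all lower, against 46.3% of all features called and 23.7% falling. The 15 further genes of this pathway named below had a median of 0.067, with 5 that rose and 3 that fell. ERCC3, the XPB helicase of TFIIH that opens DNA around a lesion, was at 98.5, 97.4 and 101 CPM in CAP-H on and at 78.9 and 80.3 CPM in CAP-H off. RAD23B, the partner of the damage sensor XPC, was at 172, 173 and 161 CPM in CAP-H on and at 135 and 138 CPM in CAP-H off. Neither gene's groups overlapped. ERCC3 (chromosome 7, 23128083 to 23144659) fell by 0.31 in log2 units (SE 0.05, adjusted p = 0.00018) and RAD23B by 0.30 (SE 0.06, adjusted p = 0.00064). ERCC6, the transcription-coupled repair factor CSB, fell as well, with 79.5, 76.5 and 78.0 CPM in CAP-H on and 66.7 and 66.4 CPM in CAP-H off (-0.23, SE 0.06, adjusted p = 0.0045). ERCC8, the CSA gene of the same branch, had 0.10 (SE 0.14, adjusted p = 0.58), and the endonuclease gene ERCC5 had -0.05 (adjusted p = 0.64). ERCC6L2, a related helicase-like gene, had 0.05 (adjusted p = 0.74).

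Of 4 genes of damage tolerance and the checkpoint clamp 3 rose. POLH, the polymerase eta that copies past ultraviolet lesions, was at 56.2, 59.5 and 63.3 CPM in CAP-H on and at 68.8 and 78.8 CPM in CAP-H off (0.31, SE 0.07, adjusted p = 0.0027). RAD18, the ligase that ubiquitinates PCNA at blocked forks, was at 95.8, 99.3 and 96.5 CPM in CAP-H on and at 115 and 109 CPM in CAP-H off (0.21, SE 0.05, adjusted p = 0.0044). RAD17, which loads the checkpoint clamp, was at 36.5, 40.1 and 40.1 CPM in CAP-H on and at 48.3 and 44.7 CPM in CAP-H off (0.26, SE 0.08, adjusted p = 0.015). All 3 were higher in both CAP-H off libraries, but no rise passed with library size alone (0.13, 0.025 and 0.08). Without CAP-H off replicate 1 RAD18 came to 0.16 (adjusted p = 0.12) and RAD17 to 0.20 (adjusted p = 0.16). RAD17 did not pass without CAP-H on replicate 1 either (0.21, adjusted p = 0.059), nor POLH with CAP-H off replicate 3 left out (0.22, adjusted p = 0.071). POLK, a bypass polymerase, was at 6.89, 5.46 and 5.20 CPM in CAP-H on and at 5.31 and 5.79 CPM in CAP-H off; it had an interval from -0.55 to 0.36, too wide at this depth to show a change of that size.

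Another 3 members fall outside these pathway groups. ERCC6L, the mitotic helicase PICH, was at 114, 121 and 117 CPM in CAP-H on and at 103 and 102 CPM in CAP-H off, and fell by 0.20 in log2 units (SE 0.05, adjusted p = 0.0059; -0.18, adjusted p = 0.070, without CAP-H off replicate 3). MCM3AP, of messenger RNA export, was at 255, 271 and 265 CPM in CAP-H on and at 229 and 229 CPM in CAP-H off, and also fell by 0.20 (SE 0.06, adjusted p = 0.015; -0.18, adjusted p = 0.073, without CAP-H on replicate 2). MCM3AP did not pass in edgeR's exact test (adjusted p = 0.066) or with the replicate block (adjusted p = 0.10) either. RAD21, the cohesin kleisin, which holds sister chromatids together and also acts in break repair, was at 446, 472 and 464 CPM in CAP-H on and at 500.5 and 509.8 CPM in CAP-H off (0.13, SE 0.05, adjusted p = 0.058). Its groups did not overlap, and the DESeq2 Wald test passed it (adjusted p = 0.027).

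Genes of the same pathways that the naming rule does not hold were taken from 7 further lists with 149 symbols, of which 87 were measured and tested. Of these 20 rose, 18 fell and 49 did not pass, so 43.7% were called against 46.3% of all features, with a median of 0.011. Among 11 genes of origin firing 4 rose and 3 fell. CLSPN, the checkpoint mediator claspin, fell by 0.43 in log2 units (SE 0.06, adjusted p = 4.8e-05) and the fork protein gene WDHD1 by 0.30 (SE 0.06, adjusted p = 0.00043). Of 12 genes of fork processing and chromatin assembly 3 rose and 3 fell, led by the translocase gene ZRANB3 (-0.62, SE 0.07, adjusted p = 4.5e-06) and the topoisomerase gene TOP2A (-0.34, SE 0.05, adjusted p = 6.1e-05), which overlaps IGFBP4.

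In the list of nucleotide supply 1 of 9 genes rose and 8 did not pass. The gene that rose was DCK, deoxycytidine kinase, a salvage enzyme like TK1 (0.39, SE 0.06, adjusted p = 7.8e-05). In damage signalling 3 of 8 rose and 3 fell, with ATRX at -0.26 (SE 0.06, adjusted p = 0.0023) and CHEK2, a checkpoint kinase, at 0.28 (SE 0.08, adjusted p = 0.0088; 0.25, adjusted p = 0.070, without CAP-H off replicate 1; 0.10, adjusted p = 0.34, with library size alone). In the list of recombination and crosslink repair 3 of 21 rose and 4 fell. RMI2, a subunit of the BLM dissolution complex, had a larger rise than any member other than POLE2. It stood at 26.4, 26.0 and 31.8 CPM in CAP-H on and at 68.6 and 68.1 CPM in CAP-H off, a gap far beyond the spread of either group. The rise was 1.30 (SE 0.09, adjusted p = 8.9e-09) and 1.11 with library size alone. Its partners BLM and RMI1 had 0.0075 (adjusted p = 0.92) and -0.19 (adjusted p = 0.12); they were named after their values were seen. FIGNL1, an ATPase of the same list, fell by 0.34 in log2 units (SE 0.07, adjusted p = 0.00092).

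Among 15 further genes of excision and mismatch repair 5 rose and 3 fell, led by the base excision glycosylase gene NTHL1 (0.39, SE 0.07, adjusted p = 0.00043) and the TFIIH subunit gene GTF2H1 (-0.33, SE 0.07, adjusted p = 0.00097). GTF2H2, another TFIIH subunit gene, went the other way and rose by 0.30 (adjusted p = 0.0019); it was named after its value was seen. Of 11 genes of end joining and tolerance 1 rose and 2 fell, namely USP7, a deubiquitinase (-0.55, SE 0.06, adjusted p = 4.7e-06), and DCLRE1A, a crosslink repair nuclease (-0.57, SE 0.09, adjusted p = 6.2e-05).

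The authors' deposited table lists 24 of the 61 members, 7 with positive and 17 with negative log2 fold changes. Of these, 22 were called here with the same sign and 2 did not pass, while 12 members called here are not among its entries. The 12 are the fall of XRCC5 and the rises of MCM5, MCM2, GINS1, RPA3, PRIM2, XRCC3, POLL, POLQ, POLH, RAD18 and RAD17. That table thus lists 7 of the 18 rises found here, and every fall except that of XRCC5. All 24 listed members have a lower log2 fold change there than in the main fit here. ERCC3, for example, has -0.42 against -0.31 and GMNN 0.44 against 0.52. What set this downward offset, and its part in the missing rises, was not tested. In the authors' deposited table FANCD2 has -0.75, POLE -0.63, PCNA 0.34 and POLE2 1.58. The main fit here gave -0.70, -0.52, 0.41 and 2.30, and the fit with the replicate block -0.65, -0.54, 0.43 and 1.65. The authors' table comes from a likelihood ratio test and not from the test used here. Whether it used such a block was not tested. The direction of that table is not stated in it.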

How the data were processed

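Gene expression was measured by RNA-seq in 5 libraries of chicken DT40 cells, grouped by their titles. The deposited files hold whole-number counts per RefSeq transcript span on galGal4; TopHat2 2.0.8b, FastQC, Bowtie and edgeR 3.2.3 appear without roles in the submitters' processing notes. No source used here gives the read counter or strand setting. The smallest deposited count is 1. A table of the authors' own comparison holds, per the file headers, a likelihood ratio score (not used here), p-values, log2 mean CPM and log2 fold changes.

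The 17036 rows were merged where identifiers or intervals repeated with equal counts, leaving 16143 features. A read may count for each feature it overlaps, and 9 members overlap another feature. Symbols came from RefSeq (GRCg7b) by accession without version, for 8905 rows (52.3%). The counts as deposited went into edgeR 4.0.16 under R 4.3.3 (filterByExpr, TMM, glmQLFit, glmQLFTest, no covariates, two-sided, Benjamini-Hochberg over 10079 features). The SE is the size of the log2 fold change over the square root of F, and intervals are 95%. The test was checked on simulated counts, where the share of false calls lay somewhat above the threshold, so that calls close to it are less firm. Pairs of replicates differed by 3.32 to 11.3 times sampling noise (chi-square per degree of freedom), so no library was a duplicate. The highest value, 11.3, is that of the CAP-H off pair and includes the POLE2 run, which differs strongly between these 2 libraries. It therefore does not describe the spread of the other features in that pair.

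The members, pathways and lists were chosen with earlier results of these data known. Values in every library are given for PCNA, TK1, GMNN, PRKDC, POLE2 and, in each pathway, the 4 tested members with the lowest p, except those not reported here. From each further list the 2 genes of lowest p are named. Single values of other members (MCM2, MCM3, MCM6, ORC4, RFC4) were added after they had been seen. Alternatives were library size scaling, DESeq2 1.42.0 size factors and Wald test, no filter, edgeR's exact test, a replicate block, each library left out, and no overlapping features. No sequence is shown, as no sequence source was used here. Single-gene results of a few genes are not reported here, although the counts include them.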

Additional observations from a re-analysis of the deposited data

How the results depend on the processing

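Members that rose numbered 18 and members that fell 16, and these counts ranged over 13 to 18 and 13 to 15 when each library was left out. The largest shift came with scaling by library size alone. Then 8 members rose and 33 fell, among 1272 features that rose and 4119 that fell. By pathway it gave 3 rises and 8 falls in origin licensing, 3 and 7 at the fork, 5 falls of Fanconi genes, 1 rise and 2 falls in recombination, 0 rises in end joining and 0 in damage tolerance, and 5 falls in excision repair. It turned PRIM2 to -0.0064 and FANCI to -0.14. This follows from its construction, which moves all features down by 0.18.

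End joining had 1 rise without the filter on low counts and 1 with the replicate number as a block. The DESeq2 Wald test gave 3 rises at the fork, 1 rise among the members outside the pathway groups, and POLE2 at 2.30 without passing. The last of these groups had 1 fall by edgeR's exact test and 1 with the block. Recombination had 1 rise without overlapping features, where fewer members are tested. For the remaining changes the cause was not tested.

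With 1 library left out, rises at the fork ranged from 3 to 5, Fanconi falls from 1 to 3, rises in end joining from 1 to 2, rises in damage tolerance from 1 to 3, falls in licensing from 2 to 4, falls in recombination from 0 to 1 and falls of members outside the pathway groups from 1 to 2. POLE2 ranged from 0.025 to 3.15. Where a group kept 1 library, that library was assumed to vary like the others.

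Replicates 1 and 3 share a number between groups, but deviations of same-numbered libraries correlated at -0.011 and -0.029, so the number is not taken as a pairing. With the replicate block 18 members rose and 14 fell, and POLE2 came to 1.65. In that fit only replicates 1 and 3 bear on the difference, since CAP-H off has no replicate 2. Besides POLE2, whose replicates differ, the widest intervals are those of members with few counts, such as POLK and RAD51D.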
